A study of Mus musculus with 18 samples.

Results

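Integrin chains are the subunits of the adhesion receptors that hold a T cell to vessel walls, to target cells and to the matrix of tissues. The set described here holds 10 genes, 3 beta chains (Itgb1, Itgb2 and Itgb7) and 7 alpha chains (Itgal, Itgam, Itgax, Itgad, Itga1, Itga4 and Itgae). They were chosen by gene symbol, and each was found once in each of the 3 deposited tables, as 10 of the 20825 genes listed for naive, effector and memory cells alike. The naive, effector and memory tables list 23757, 24117 and 24927 genes.

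Libraries of messenger RNA, caught on poly-T beads, were made from CD8+ T cells of mice. The cells were labelled Hspa9 cKO, a conditional knockout of the gene for the mitochondrial chaperone GRP75, or WT (wild type). The study asked what loss of GRP75 does to gene expression in each CD8+ subset. The groups were naive cKO and naive WT cells, isolated from lymph nodes and spleen of mice aged 8 weeks, and effector cKO, effector WT, memory cKO and memory WT cells, which were grown in vitro from naive cells and are not cells that responded to an infection. Each group had 3 libraries, 18 in all. The Cre line that removes Hspa9, the strain, and the culture conditions are not given in the sources used here. The labels do not say that the 3 libraries of a group came from separate mice or cultures, so the p-values measure only the spread between these samples.

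The libraries held 14771251 to 18049774 reads. Hspa9 itself went against its label: it was higher in the libraries labelled cKO with a log2 difference of 0.69 in naive cells, 0.16 in effector cells and 0.48 in memory cells (limma, adjusted p of 1.3e-05, 0.0335 and 0.00034), so cKO names the label throughout and not a measured loss of the transcript. Naive cKO libraries carried 2907 ± 143 normalised reads of the Y-linked Ddx3y, against 0 in naive WT libraries (SD, n = 3 each), and Xist averaged 4428 ± 279 in naive cKO and 16393 ± 1514 in naive WT libraries. In naive cells, sex and genotype therefore cannot be told apart. Ddx3y was not listed for effector or memory cells. Xist averaged 12579 ± 240 in effector cKO and 14267 ± 3662 in memory cKO libraries. In cKO cells, subset and sex thus cannot be told apart in the contrasts with naive cells. The 15 genes of CD8 T cell identity that were checked, among them Cd3e and Cd8a, had at least 10 normalised reads in every WT library, with summed levels of 6641 to 8277 CPM (reads scaled to the library total) in cKO and 7673 to 8663 CPM in WT libraries.

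Every integrin at the surface is a pair of 1 alpha and 1 beta chain, and an alpha chain needs its partner to leave the endoplasmic reticulum. Itgal with Itgb2 forms LFA-1, which binds ICAM proteins and holds the T cell to its target. Itgam, Itgax and Itgad, known as CD11b, CD11c and CD11d, use the same beta chain and are best known from myeloid cells, although activated CD8+ T cells also carry CD11b and CD11c. Itga4 pairs with Itgb1 to form VLA-4, a receptor of VCAM-1 and fibronectin, or with Itgb7 to form the gut homing receptor of MAdCAM-1. Itgae, or CD103, pairs with Itgb7, binds E-cadherin of epithelia and is induced by TGF-beta. Itga1, or CD49a, pairs with Itgb1, binds collagen and marks many tissue-resident memory T cells. These are RNA measurements, and surface protein was not measured. In bulk RNA, fewer cells that carry a transcript and less of it per cell cannot be told apart.

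Several of the 10 genes are close relatives or share a locus. Itgal, Itgam, Itgax and Itgad lie on the plus strand of chromosome 7 (GRCm39), at chr7:126895432-126934310, chr7:127661812-127717663, chr7:127728719-127749829 and chr7:127753548-127822988. Among all 45 pairs of the 10 chains, compared by their longest protein-coding transcript (GENCODE annotation on GRCm38), only Itgax and Itgad shared a run of 50 or more bases. Their longest shared run was 188 bases, against 26 for the next pair, and 9.61% of the 50-base words of Itgax occurred in Itgad. The run is shown since reads within it could come from either gene. It lies in coding exons 11 to 13 of Itgax (chr7:128135612-128136062, plus strand, GRCm38) and 12 to 14 of Itgad (chr7:128189340-128189789). Capitals mark the shared bases, and the 10 bases on each side are in lower case.
Itgax: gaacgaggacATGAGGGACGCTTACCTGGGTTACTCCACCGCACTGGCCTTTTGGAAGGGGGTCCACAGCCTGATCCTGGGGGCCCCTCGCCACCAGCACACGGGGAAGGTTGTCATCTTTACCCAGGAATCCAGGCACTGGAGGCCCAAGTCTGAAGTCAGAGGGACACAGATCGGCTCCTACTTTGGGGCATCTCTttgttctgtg
Itgad: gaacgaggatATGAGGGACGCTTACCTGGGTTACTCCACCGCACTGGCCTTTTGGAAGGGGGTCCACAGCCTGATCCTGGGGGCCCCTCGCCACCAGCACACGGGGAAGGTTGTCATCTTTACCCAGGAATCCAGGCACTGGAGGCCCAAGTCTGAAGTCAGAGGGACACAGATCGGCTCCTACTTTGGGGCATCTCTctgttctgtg

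Promoters from 250 bases before to 50 bases after the start of the gene (RefSeq, GRCm38.p6) were found for 6 of the 10 chains. Those of Itga1, Itgax and Itga4 are shown, because, of the 6, these genes were called with the same direction in both cultured subsets, Itga1 and Itgax higher and Itga4 lower in cKO. The motifs searched on both strands were TGTGGT (bound by RUNX factors), GGAAGT (bound by ETS factors) and TGATGNAA (bound by ATF4 with C/EBP). Of 32851 promoters of the same length, 16.8% held the RUNX motif, 23.8% the ETS motif and 3.97% the ATF4 motif. Capitals mark the matches, none of which overlap.
Itga1: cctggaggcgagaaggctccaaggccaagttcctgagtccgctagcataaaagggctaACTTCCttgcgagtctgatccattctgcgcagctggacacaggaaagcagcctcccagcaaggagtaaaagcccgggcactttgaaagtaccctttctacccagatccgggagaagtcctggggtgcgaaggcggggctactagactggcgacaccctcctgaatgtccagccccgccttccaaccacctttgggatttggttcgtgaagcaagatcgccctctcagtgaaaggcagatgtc
Itgax: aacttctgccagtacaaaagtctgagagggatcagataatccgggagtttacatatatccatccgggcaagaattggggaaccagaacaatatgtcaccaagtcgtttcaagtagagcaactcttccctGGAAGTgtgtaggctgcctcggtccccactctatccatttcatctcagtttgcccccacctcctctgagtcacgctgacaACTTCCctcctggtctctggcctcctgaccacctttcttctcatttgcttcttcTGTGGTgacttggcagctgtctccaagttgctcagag
Itga4: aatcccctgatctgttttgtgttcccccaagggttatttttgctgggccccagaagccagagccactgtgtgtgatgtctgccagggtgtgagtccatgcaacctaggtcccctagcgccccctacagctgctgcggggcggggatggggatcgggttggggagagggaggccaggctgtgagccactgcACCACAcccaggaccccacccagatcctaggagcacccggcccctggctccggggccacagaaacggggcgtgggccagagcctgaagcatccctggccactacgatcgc
The Itga1 window (chr13:115101915-115102214, minus strand) held 1 ETS motif. The Itgax window (chr7:128129300-128129599, plus strand) held 2 ETS motifs and 1 RUNX motif. The Itga4 window (chr2:79255176-79255475, plus strand) held 1 RUNX motif. Of the windows not shown, that of Itgb7 held 1 ETS motif, and those of Itgb1 and Itgam held no motif. The ATF4 motif was in none of the 6 windows. A match is a description of the letters and not of binding.

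Levels per length set the scale of each chain. They are given as RPKM, the reads divided by the deposited gene length and by the library total. This allows for length and depth, but not for differences in RNA composition between subsets. Levels of different genes also depend on the length used. For Itga4 the deposited length is 13978 bases, against 9767 for the longest protein-coding transcript compared above. In naive cells Itgb7 was the most abundant of the 10, at 246 ± 18.6 in cKO and 294 ± 30.9 in WT libraries, followed by Itgb2, Itgal, Itgae, Itga4 and Itgb1, and no neighbours among these 6 overlapped. Itgad, Itgax, Itgam and Itga1 were at 1.14 or below in every naive library, and in naive WT libraries Itgam, Itgad and Itgax overlapped. In effector cells Itgb2 led, at 461 ± 11.6 in cKO and 423 ± 14.0 in WT libraries. Itgb7, at 299 ± 8.00, came next in effector cKO cells, whereas in effector WT cells Itgb1, at 339 ± 9.90, and Itgb7, at 315 ± 18.3, overlapped. In memory cKO cells Itgb2, at 206 ± 3.79, and Itgb7, at 197 ± 16.8, overlapped at the top. In memory WT cells Itgb7, at 214 ± 10.4, stood above Itgb2, at 163 ± 2.09 (SD, n = 3 for each group).

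**Figure D1:**
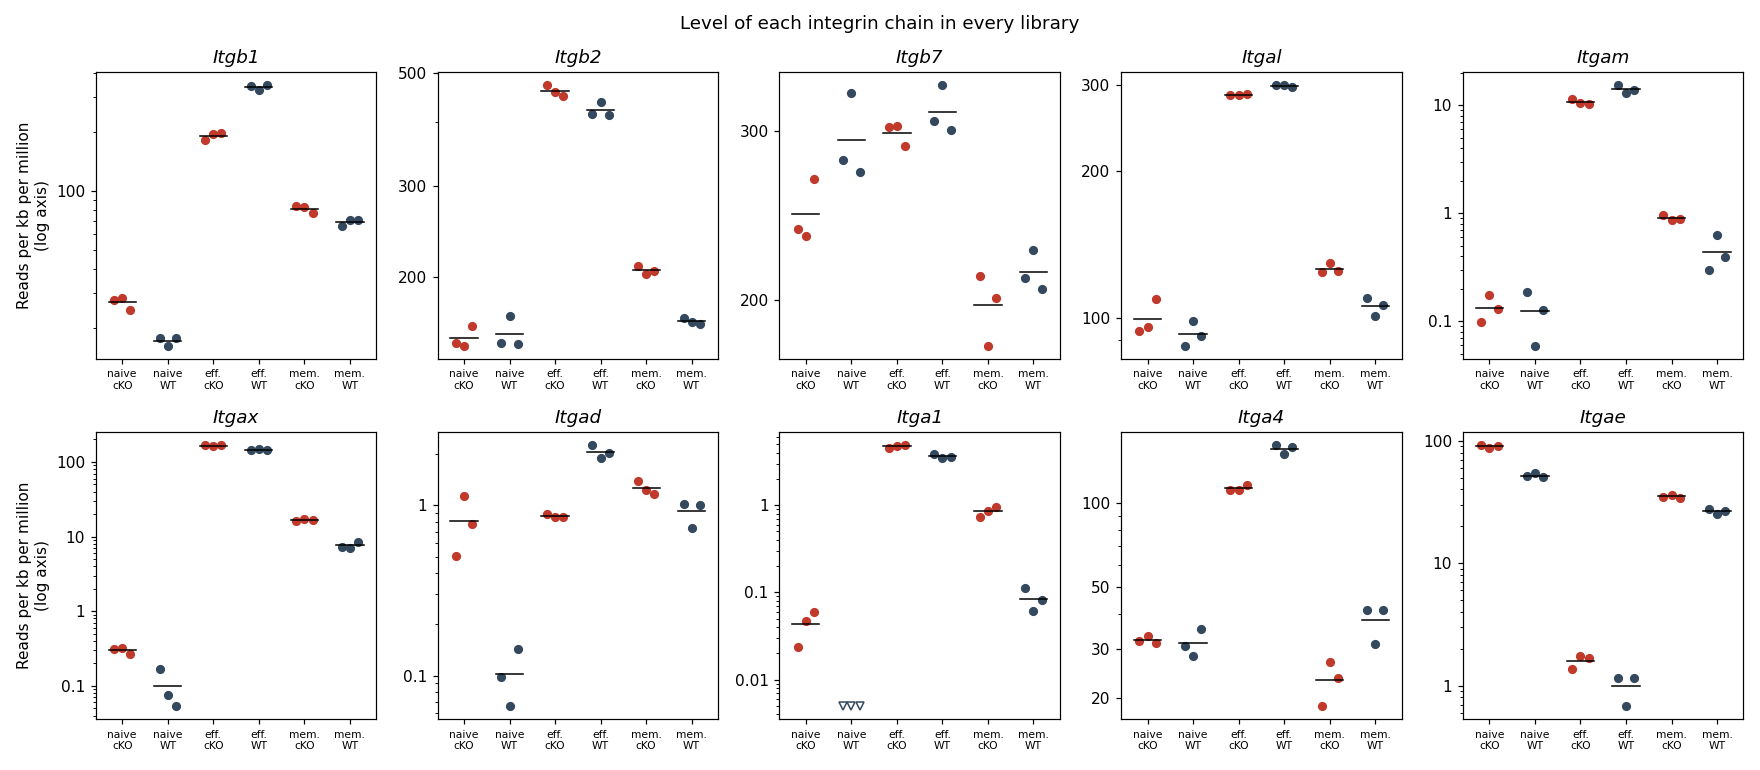
Level of each integrin chain in each of the 18 libraries, in RPKM on a log axis with its own range in each panel. Points are libraries (red cKO, dark WT), lines are means of 3 and open triangles mark the 3 naive WT libraries in which Itga1 had 0 reads. Itgae is lowest in effector cells, and the other alpha chains peak there in both genotypes except Itgad, which does so in WT cells.

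Differences between subsets were tested within each genotype on whole reads (edgeR quasi-likelihood test with Benjamini-Hochberg adjustment over all genes, called at an adjusted p under 0.05). From naive to effector cells, 8 of the 10 chains rose and 1 fell in cKO cells, where 68.8% of all genes tested were called (34.1% higher and 34.7% lower). In WT cells 9 rose and 1 fell, where 70.1% of all genes were called (35.3% higher and 34.8% lower). The median over the 10 chains was 1.89 in cKO and 3.39 in WT cells on the log2 scale, against -0.03 and -0.01 over all genes. Itga1, Itgam, Itgax and Itgad had 15 reads or fewer in each naive WT library. In each naive cKO library Itga1 and Itgam had 17 or fewer. Chains at these levels entered the test only through the other subsets, where they were higher. Their rises lift the counts and medians and are no support for a direction of the set. Itgae was the chain that fell, by 5.63 in cKO and by 5.61 in WT cells. Itgax rose by 9.27 in cKO and by 10.59 in WT cells, and Itgam by 6.49 in cKO and by 6.90 in WT cells. Itgad was not called in cKO cells (0.29, adjusted p = 0.303, but 0.65 and 0.0282 without naive cKO replicate 2) and rose by 4.41 in WT cells. Itgb7 rose by 0.19 in WT cells, a call lost with library totals (0.10, adjusted p = 0.224) and without naive WT replicate 1 (0.114), naive WT replicate 3 (0.161) or effector WT replicate 2 (0.139).

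From effector to memory cells most of this turned round. Itgae rose, by 4.35 in cKO and by 4.69 in WT cells. Of the other chains, 8 fell and 1, Itgad, was not called in cKO cells (58.8% of all genes called, 30.4% higher and 28.4% lower), and 9 fell in WT cells (65.0% of all genes called, 32.8% higher and 32.2% lower). The medians over the 10 chains were -1.32 in cKO and -1.82 in WT cells, against 0.04 and 0.03 over all genes. Set against naive cells, memory cells had 7 chains higher and 3 lower in cKO (41.5% of all genes called, 21.9% higher and 19.5% lower), and 7 higher and 2 lower in WT (39.2% of all genes called, 21.3% higher and 17.9% lower). In cKO cells Itgb7 fell by 0.24 and Itgad rose by 0.73. Leaving out 1 library ended the Itgb7 call for naive replicates 1 and 3, memory replicates 2 and 3 and each effector replicate (adjusted p of 0.0512 to 0.146), and the Itgad call for naive replicates 1 and 3 and memory replicate 1 (0.0506 to 0.103). Itgb2 was the chain not called in WT cells (0.12, adjusted p = 0.122), but was called without naive WT replicate 2 (0.00611). Itga4 went opposite ways: it fell by 0.41 in cKO and rose by 0.31 in WT cells, with adjusted p-values of 0.00227 and 0.00816. The WT call was lost without WT memory replicate 3 (0.25, adjusted p = 0.0588). The medians over the 10 chains were 0.63 in cKO and 1.09 in WT cells, against -0.01 and 0.00 over all genes. The chains with few naive reads named above also lift these counts and medians. The 3 contrasts of a genotype share libraries and are not independent of each other. In cKO cells the contrasts of effector and of memory with naive cells, that of Itga4 included, cannot be told apart from sex.

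Genotype was then compared within each subset with limma on log2(normalised reads + 1), where normalised reads are the deposited values. To be tested, a gene had to reach 10 normalised reads in 3 or more libraries. In naive cells 9 of the 10 chains were tested; 4 were higher and 1 was lower in cKO, and 24.9% of all genes tested were called (12.9% higher and 11.9% lower). Of the 4 higher chains, Itgax and Itgad passed the filter only through the cKO libraries, so their naive calls are no support for a direction of the set. In effector cells all 10 were tested, 4 were higher and 4 lower, and 20.1% of all genes were called (10.7% higher and 9.37% lower). In memory cells 5 were higher and 1 lower, and 19.1% of all genes were called (12.1% higher and 7.00% lower). The cKO and WT libraries did not overlap for 6 of the 9 chains tested in naive cells (39.8% of all genes tested), for 9 in effector cells (35.4%) and for 10 in memory cells (36.2%). The medians over the tested chains were 0.07, -0.06 and 0.29 in naive, effector and memory cells, against -0.01, -0.01 and -0.02 over all genes. Scaling to library totals in place of the deposited size factors shifted all genes by 0.12 (naive), -0.01 (effector) and 0.07 (memory) on the log2 scale.

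**Figure D2:**
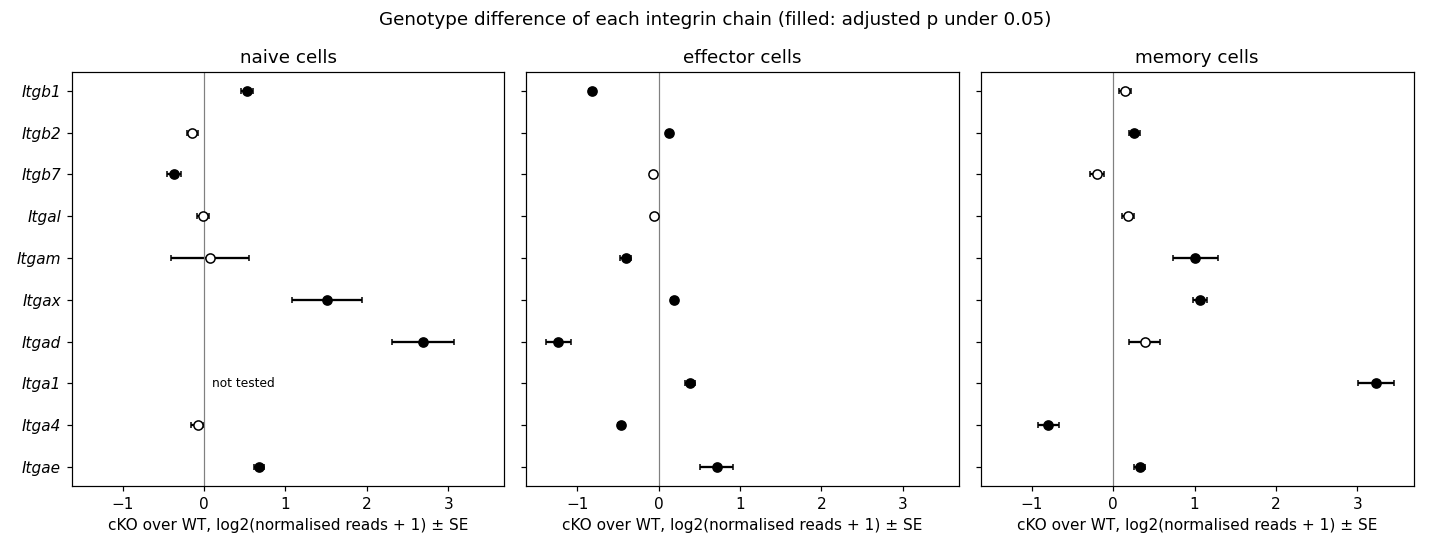
Difference of each chain between cKO and WT cells in naive, effector and memory cells, on the log2(normalised reads + 1) scale with its standard error. Filled points were called at an adjusted p under 0.05. Itgb1 and Itgad stand right of 0 in naive and left of 0 in effector cells, Itgam stands left of 0 in effector and right of 0 in memory cells, and Itga1 in memory cells is the farthest right, at 3.23.

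Among the beta chains, Itgb1 (CD29, chr8:129412135-129459681, GRCm39) changed direction with the subset. In naive cells Itgb1 had 1766, 1809 and 1572 normalised reads in cKO libraries and 1219, 1120.3 and 1220 in WT libraries, 1.45-fold higher in cKO (log2 difference 0.53, SE 0.08, adjusted p = 0.0004). In effector cells Itgb1 had 11887, 12744 and 12872 in cKO and 22360, 21349 and 22539 in WT libraries, and fell by 0.82 (SE 0.04, adjusted p = 6.17e-12). Every effector cKO library was below every effector WT library, and this was the smallest adjusted p of the 10 chains in any genotype comparison. In memory cells Itgb1 had 5365, 5328 and 4968 in cKO and 4471, 4866 and 4791 in WT libraries, without overlap but not called (0.15, SE 0.07, adjusted p = 0.177). Scaled to library totals, the memory difference was 0.22 and passed (adjusted p = 0.0426). The genotype difference of Itgb1 itself differed between subsets: effector minus naive was -1.35 (SE 0.09, adjusted p = 1.08e-10), memory minus naive was -0.38 (SE 0.09, adjusted p = 0.00451), and memory minus effector was 0.97 (SE 0.09, adjusted p = 1.7e-07). The naive rise, and with it both contrasts with naive cells, cannot be told apart from sex.

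Itgb2 (CD18, chr10:77366086-77401542), the common beta chain of LFA-1 and the CD11 receptors, moved little. In effector cells Itgb2 had 23172, 22450.2 and 22077 in cKO and 20264, 21385 and 20162 normalised reads in WT libraries, a rise of 0.13 (SE 0.03, adjusted p = 0.00758). In memory cells Itgb2 had 10118, 9745 and 9905 in cKO and 8340, 8376 and 8139 in WT libraries, a rise of 0.26 (SE 0.07, adjusted p = 0.0201). Neither pair of groups overlapped. The effector call was lost without WT replicate 3 (adjusted p = 0.0561) and in a fit of all 18 libraries (0.188). In memory cells, leaving out WT replicate 1 ended the call (adjusted p = 0.0879), as did leaving out WT replicate 3 (0.118) and cKO replicate 3 (0.0581). In naive cells the difference was -0.15 (SE 0.07, adjusted p = 0.153). Itgb7 (chr15:102124430-102140379) had 10216, 10034 and 11509 in naive cKO and 13023, 15419 and 12728 in naive WT libraries, and fell by 0.37 (SE 0.08, adjusted p = 0.00764). It was not called in effector cells (-0.07, SE 0.04, adjusted p = 0.259) or memory cells (-0.19, SE 0.09, adjusted p = 0.144), though without memory cKO replicate 1 it was (-0.25, adjusted p = 0.0207). Its effector minus naive difference of 0.31 (SE 0.11, adjusted p = 0.0616) was called when 1 of 5 libraries was left out: naive WT replicate 3, naive cKO replicate 3, effector WT replicate 2, or memory cKO replicate 1 or 2 (0.0257 to 0.0474).

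Itgb7 thus made up a different share of the 3 beta chains in each subset and genotype. By reads per kilobase, it was 57.4%, 57.1% and 59.2% of their sum in naive cKO libraries and 62.8%, 64.1% and 62.2% in naive WT libraries. In effector cells it was 31.4% ± 0.455 in cKO and 29.2% ± 1.09 in WT libraries, and in memory cells 40.7% ± 1.86 in cKO and 47.9% ± 1.15 in WT libraries (SD, n = 3 each). The share was lower in cKO in naive and memory cells and higher in effector cells, without overlap. With 3 against 3 libraries the exact two-sided permutation test cannot go below p = 0.1, which each of the 3 reached. Over the 9 ratios compared in this way the adjusted p was also 0.1 for each.

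**Figure D3:**
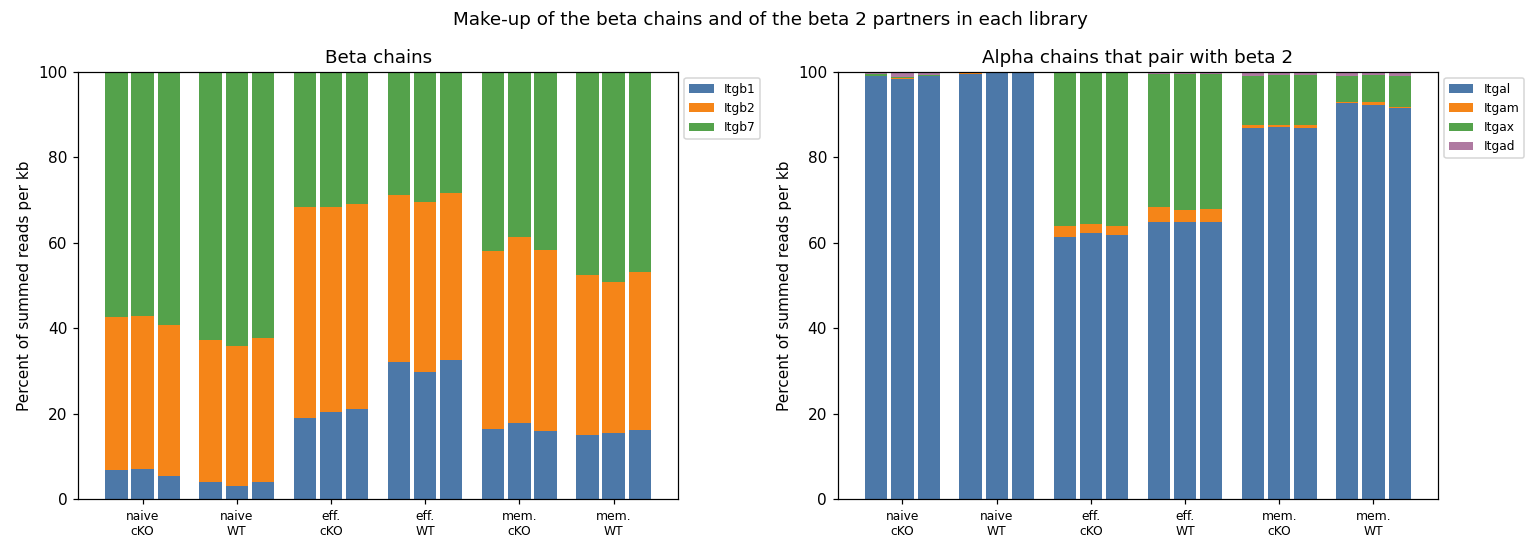
Make-up of the 3 beta chains (left) and of the 4 alpha chains that pair with Itgb2 (right) in each of the 18 libraries, as a percent of their summed reads per kilobase, with 1 bar per library. Itgal is 98.3% to 99.8% of the alpha chains in naive, 61.4% to 64.9% in effector and 86.9% to 92.7% in memory libraries, with Itgax as most of the rest in effector and memory cells.

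Itgal, the alpha chain of LFA-1, was called in no subset on the deposited scaling. Itgal had 9602, 9772 and 11132 normalised reads in naive cKO and 9663, 10946 and 10182 in naive WT libraries, with overlap (-0.01, SE 0.07, adjusted p = 0.908, and 0.10 when scaled to library totals). In effector cells Itgal had 30176, 30219 and 30273 in cKO and 31604, 31440 and 31116 in WT libraries (-0.05, SE 0.03, adjusted p = 0.19). In memory cells Itgal had 12859, 13442 and 12957 in cKO and 11888, 11184 and 11518 in WT libraries (0.18, SE 0.07, adjusted p = 0.106). Scaling to library totals gave 0.26 in memory cells with an adjusted p of 0.0286. The fit of all 18 libraries (adjusted p = 0.0406) and that without memory cKO replicate 1 (0.0436) also called it there.

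Itgam (CD11b) was barely detected in naive cells, where the means were 10.5 ± 2.96 in cKO and 10.6 ± 5.39 in WT libraries. In effector cells Itgam had 909, 837 and 818 normalised reads in cKO and 1237, 1049 and 1110 in WT libraries, and fell by 0.40 (SE 0.07, adjusted p = 0.0002). In memory cells the order was the other way, with 75.9, 68.2 and 70.3 in cKO and 24.6, 52.8 and 32.7 in WT libraries, 1.95-fold higher in cKO (log2 difference 1.01, SE 0.27, adjusted p = 0.0218). The groups overlapped in naive cells and in neither of the other 2 subsets. Omitting memory WT replicate 1 ended the memory call (adjusted p = 0.0804), and so did omitting memory WT replicate 3 (0.0749), cKO replicate 2 (0.0525) and cKO replicate 3 (0.0701). In a fit of all 18 libraries the effector call was lost (0.454). Memory minus effector was 1.41 (SE 0.41, adjusted p = 0.0302), which was lost without effector WT replicate 1, 2 or 3, effector cKO replicate 2 or 3, memory WT replicate 1 or 3, or memory cKO replicate 1 or 3 (0.0507 to 0.0997). Gm49368, on the same strand, overlaps the Itgam locus and averaged 64.5 normalised reads in effector and 0.871 in memory cells. The share of reads that could belong to either gene was not tested here.

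Itgax (CD11c) was higher in cKO in effector and memory cells, and at few reads in naive cells. In naive cells Itgax had 23.2, 24.3 and 20.1 in cKO and 13.7, 6.06 and 4.36 normalised reads in WT libraries (1.51, SE 0.43, adjusted p = 0.025). Itgax entered the naive test only through the cKO libraries, so its naive call is no support for a shared direction. At these few reads the naive call was lost without WT replicate 3 or any 1 of the cKO replicates (adjusted p of 0.0509 to 0.0954) and under DESeq2 (0.0618). In effector cells Itgax had 12926, 12573 and 12808 in cKO and 11123, 11333 and 11161 in WT libraries, a rise of 0.19 (SE 0.03, adjusted p = 0.000227, and 0.655 in a fit of all 18 libraries). In memory cells Itgax had 1236, 1301 and 1270 in cKO and 576, 574 and 675 in WT libraries, 2.09-fold higher in cKO (log2 difference 1.06, SE 0.09, adjusted p = 3.73e-06). The effector difference was smaller than the naive one, by -1.32 (SE 0.29, adjusted p = 0.00195), and the naive one rests on few reads. Memory minus effector was 0.88 (SE 0.29) and was not called (adjusted p = 0.0601). It was called with edgeR (adjusted p = 9.32e-07), with a pseudocount of 8 (0.0021), with library totals (0.0381) and without any 1 of the naive WT replicates (0.00014 to 0.0493). Memory minus naive was -0.45 (SE 0.29, adjusted p = 0.312), and -0.87 without naive WT replicate 1 (0.000172).

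Itgad (CD11d) moved in opposite directions. In naive cells Itgad had 35.3, 79.7 and 54.2 in cKO and 7.38, 5.05 and 10.9 normalised reads in WT libraries, 7.25-fold higher in cKO (log2 difference 2.69, SE 0.38, adjusted p = 0.00041). In effector cells Itgad had 63.9, 61.8 and 61.8 in cKO and 163, 136 and 146 in WT libraries, and fell by 1.23 (SE 0.15, adjusted p = 1.07e-05). In memory cells Itgad had 98.3, 87.4 and 83.4 in cKO and 75.9, 55.8 and 75.0 in WT libraries, without overlap but not called (0.39, SE 0.19, adjusted p = 0.183). Effector minus naive was -3.92 (SE 0.37, adjusted p = 5.07e-08), the largest difference between subsets among the 10 chains. The naive side of this contrast cannot be told apart from sex. In naive cells Itgad and Itgax reached 10 normalised reads in 4 libraries each, the 3 cKO libraries and 1 WT library, so both entered the test only through the group in which they were higher.

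A gene on the opposite strand lies inside the Itgad locus. Cox6a2, a subunit isoform of cytochrome c oxidase, is at chr7:127804607-127805559 (GRCm39). It had 599, 518 and 519 normalised reads in naive cKO and 2.11, 2.02 and 2.18 in naive WT libraries. In memory cells it averaged 544 ± 93.3 in cKO and 11.3 ± 3.45 in WT libraries, and in effector cells 15.0 ± 2.06 in cKO and 9.53 ± 2.43 in WT libraries (SD, n = 3 each). The library protocol in the labels does not describe a strand-marking step, and without strand, reads of the 2 genes where they overlap cannot be told apart. The share of such reads in the Itgad values was not tested. The highest Cox6a2 value of an effector library was 17.2, and its part in the effector difference of Itgad was not tested either.

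The share of Itgal among the 4 alpha chains of Itgb2 was lower in cKO in each subset. Itgal was 98.8% ± 0.390 of the 4 in naive cKO and 99.6% ± 0.157 in naive WT libraries. It was 61.8% ± 0.385 in effector cKO and 64.8% ± 0.0878 in effector WT libraries, and 87.0% ± 0.0862 in memory cKO and 92.2% ± 0.648 in memory WT libraries (SD, n = 3 each). The libraries did not overlap in any subset (exact permutation p = 0.1 each, the smallest possible). In effector cells Itgax was the only one of the other 3 that was higher in cKO, since Itgam averaged 10.6 RPKM in cKO and 14.1 RPKM in WT libraries and Itgad 0.864 RPKM in cKO and 2.06 RPKM in WT libraries. In naive cells Itgad, whose locus holds Cox6a2, differed most, at 0.805 RPKM in cKO and 0.102 RPKM in WT libraries, beside 0.302 RPKM in cKO and 0.0995 RPKM in WT libraries for Itgax.

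Markers of other cells also differed between the genotypes, and their part in the results was not tested. Macrophage and monocyte markers summed to 224 to 282 CPM in memory cKO and 39.1 to 41.8 CPM in memory WT libraries, and 11 of 12 tested were higher in cKO. Neutrophil markers summed to 227 to 306 CPM in memory cKO and 19.5 to 23.0 CPM in memory WT libraries, with 11 of 11 higher. Dendritic cell markers summed to 550 to 624 CPM in memory cKO and 164 to 188 CPM in memory WT libraries, with 11 of 12 higher. Each defining marker on these lists was detected in memory cKO libraries, and of the 3 lists only Ly6g was at 0 in all 3 memory WT libraries. In all 3 memory WT libraries, 6 of 14 macrophage and monocyte, 6 of 12 neutrophil and 9 of 12 dendritic cell markers had 10 or more normalised reads, so part of the genes tested would not have passed the filter on the WT libraries alone. Over all genes tested in memory cells, 12.1% were higher and 7.00% lower in cKO.

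In effector cells the same sums were nearer to each other: 73.4 to 81.1 CPM in cKO and 40.5 to 41.4 CPM in WT libraries for macrophages and monocytes (5 of 12 higher), and 57.8 to 63.8 CPM in cKO and 17.4 to 19.7 CPM in WT libraries for neutrophils (8 of 8 higher). For dendritic cells they were 664 to 683 CPM in cKO and 643 to 654 CPM in WT libraries (8 of 10 higher and 1 lower). The dendritic cell list includes Ccr2, whose levels followed Itgax most closely over the 18 libraries. Its sum therefore need not measure dendritic cells alone. Itgax was at 163 to 168 RPKM in effector cKO and 145 to 148 RPKM in effector WT libraries. Itgam and Itgad had log2 differences of -0.40 and -1.23 in effector cells, and the part of other cells in them was not tested. In naive cells, macrophage and monocyte markers summed to 28.4 to 29.9 CPM in cKO and 15.0 to 17.6 CPM in WT libraries (1 of 2 tested higher), and dendritic cell markers to 138 to 159 CPM in cKO and 107 to 118 CPM in WT libraries (3 of 5 higher). Clec10a, Clec9a, Siglech and Xcr1, markers of dendritic cells, were at 0 in all naive WT libraries. Neutrophil markers were near 0 in naive cells, from 0.582 to 1.33 CPM in cKO and from 0.440 to 1.25 CPM in WT libraries, and none was tested. Only 7 macrophage and monocyte, 6 neutrophil and 6 dendritic cell markers reached 10 normalised reads in all 3 effector WT libraries. In naive WT libraries 3 dendritic cell markers did. The other genes tested on these lists passed the filter with the help of the cKO libraries. Over all genes tested, 10.7% were higher in effector and 12.9% in naive cells.

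Lymphoid markers moved too. NK cell markers summed to 124 to 138 CPM in naive cKO and 90.8 to 103 CPM in naive WT libraries, to 445 to 452 CPM in effector cKO and 243 to 263 CPM in effector WT libraries, and to 428 to 503 CPM in memory cKO and 229 to 258 CPM in memory WT libraries. The genes of this list that were higher in cKO numbered 3 of 5, 6 of 9 and 7 of 9 in naive, effector and memory cells, with 1, 2 and 0 lower. Markers of gamma-delta T cells, which can carry CD103, summed to 50.5 to 59.2 CPM in naive cKO and 9.61 to 11.1 CPM in naive WT libraries. In effector cells this list came to 64.0 to 66.7 CPM in cKO and 9.01 to 9.67 CPM in WT libraries, and in memory cells to 118 to 153 CPM in cKO and 16.0 to 16.8 CPM in WT libraries, and the genes tested, 4, 5 and 4, were higher in cKO. Of the 6 genes listed, 1 had 10 normalised reads in all 3 WT libraries of naive cells, 3 in effector and 4 in memory cells, so most of those tested in naive cells would not have passed the filter on the WT libraries alone. The same held for part of the NK cell and erythroid genes tested, and for part of the B cell, CD4 and effector state genes in naive cells. Over all genes tested, 12.9%, 10.7% and 12.1% were higher and 11.9%, 9.37% and 7.00% lower in naive, effector and memory cells. B cell markers were higher in cKO for 3 of 5 (1 lower), 3 of 9 and 7 of 9 genes, CD4 T cell markers for 5 of 6, 1 of 6 (2 lower) and 2 of 6 (2 lower), in naive, effector and memory cells, and erythroid markers for 7 of 7 in effector and 5 of 7 in memory cells, with none tested in naive cells. The CD4 markers summed to 152 to 177 CPM in naive cKO and 93.6 to 105 CPM in naive WT libraries, and to 253 to 268 CPM in effector cKO and 293 to 303 CPM in effector WT libraries. In memory cells they came to 218 to 245 CPM in cKO and 369 to 390 CPM in WT libraries, lower in cKO. Genes of the CD8 T cell identity list were lower in cKO for 8 of 15 in naive cells, 4 of 15 in effector cells (4 higher) and 4 of 15 in memory cells (1 higher). Genes of the naive T cell state were lower in cKO for 5 of 10 (2 higher), 4 of 10 (3 higher) and 8 of 10, and genes of the effector state were higher for 7 of 10 (1 lower), 3 of 12 (5 lower) and 9 of 12 (1 lower).

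**Figure D4:**
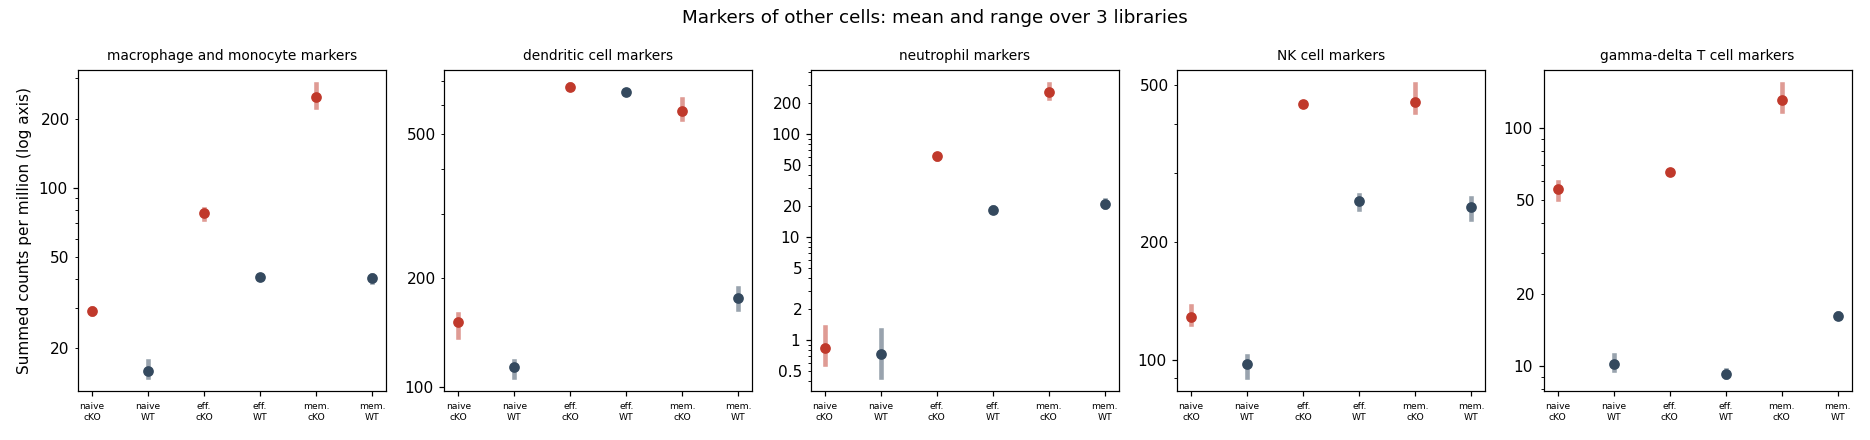
Summed levels of 5 marker lists of other cell types, in CPM on log axes with a range of their own in each panel. Points are means and bars the range over 3 libraries (red cKO, dark WT). Each list is higher in cKO in memory cells, where neutrophil markers average 259 CPM in cKO and 21.2 CPM in WT libraries.

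Itga1 (CD49a, chr13:115089632-115238500, minus strand) had the largest rise of the 10 in memory cells. It had 214, 251 and 283 normalised reads in memory cKO and 34.6, 19.3 and 25.0 in memory WT libraries, 9.48-fold higher in cKO (log2 difference 3.23, SE 0.22, adjusted p = 1.07e-06). In effector cells Itga1 had 1346, 1425 and 1456 in cKO and 1154, 1030 and 1055 in WT libraries, a rise of 0.38 (SE 0.06, adjusted p = 6.59e-05, and 0.387 in a fit of all 18 libraries). In naive cells 39 reads fell on Itga1 in the 3 cKO libraries, or 6.88, 13.6 and 17.1 normalised reads, and 0 in the 3 WT libraries. With 3 reads over the WT group as the floor, naive cKO cells were at least 11.9-fold higher. Only 2 naive libraries reached 10 normalised reads, so the gene was not tested there. Memory minus effector was 2.84 (SE 0.34, adjusted p = 8.17e-06). WT effector cells were at least 1085-fold and WT memory cells at least 25.5-fold above WT naive cells, on CPM and with the same floor.

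The order of the 6 groups for Itga1 was effector cKO, effector WT, memory cKO, memory WT, naive cKO and naive WT, and no neighbours overlapped. Its means were 4.72, 3.63, 0.849, 0.0853, 0.0434 and 0 RPKM. NK cell markers, given above, were also higher in memory cKO cells, and their part in the Itga1 difference was not tested. Pelo and Gm49395, on the same strand, overlap the Itga1 locus. In memory cells Pelo averaged 48.2 ± 4.69 in cKO and 35.2 ± 7.38 normalised reads in WT libraries, and Gm49395 averaged 1.44. The share of reads that could belong to more than 1 of these genes was not tested.

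Itga4 (CD49d, chr2:79085770-79163467) was lower in cKO in both cultured subsets. In effector cells Itga4 had 24935, 24928 and 25947 in cKO and 36050, 33320 and 35303 normalised reads in WT libraries, and fell by 0.46 (SE 0.03, adjusted p = 9.64e-09). In memory cells Itga4 had 4136, 5952 and 5225 in cKO and 9504, 7397 and 9559 in WT libraries, and fell by 0.80 (SE 0.13, adjusted p = 0.00126). The libraries did not overlap in either subset. In naive cells they did, with means of 7012 ± 206 in cKO and 7423 ± 831 in WT libraries (SD, n = 3 each) and a difference of -0.08 (SE 0.08, adjusted p = 0.515), which was 0.04 when scaled to library totals. Memory minus naive was -0.72 (SE 0.15, adjusted p = 0.00184), whereas effector minus naive was -0.39 and was not called (adjusted p = 0.076). It was called with edgeR (0.0403), with library totals (0.0205), and without naive WT replicate 3 (0.0357), memory WT replicate 2 (0.0458), memory cKO replicate 1 (0.0207) or memory cKO replicate 2 (0.0454). In effector cells both chains of VLA-4, Itga4 and Itgb1, were thus lower in cKO.

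Itgae (CD103, chr11:72981409-73038272) was higher in cKO in all 3 subsets. In naive cells Itgae had 6553, 6232 and 6455 normalised reads in cKO and 3934, 4229 and 3892 in WT libraries, 1.60-fold higher in cKO (log2 difference 0.68, SE 0.06, adjusted p = 1.08e-05). In effector cells, where it was nearly lost, it had 100, 129 and 123 in cKO and 84.1, 49.8 and 84.3 in WT libraries (0.71, SE 0.20, adjusted p = 0.016). In memory cells Itgae had 2532, 2603 and 2476 in cKO and 2101, 1956 and 2017 in WT libraries, a rise of 0.33 (SE 0.07, adjusted p = 0.00514). The groups did not overlap in any subset. The effector call was lost without WT replicate 2 (adjusted p = 0.0771), cKO replicate 2 (0.0658) or cKO replicate 3 (0.0548), and the memory call in the fit of all 18 libraries (0.0819). No difference of this effect between subsets was called (adjusted p of 0.208 to 0.913), though effector WT replicate 2, left out, gave -0.35 for memory minus naive with an adjusted p of 0.0292, as did edgeR (0.032).

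Haspin, a kinase gene on the opposite strand, lies inside the Itgae locus. It averaged 1031 ± 36.9 in naive cKO and 663 ± 35.8 in naive WT libraries, 524 ± 42.2 in effector cKO and 595 ± 29.6 in effector WT libraries, and 530 ± 58.8 in memory cKO and 435 ± 16.1 in memory WT libraries (SD, n = 3 each). The share of reads that could belong to either gene was not tested.

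The balance of Itgae against Itga4, the alpha chains that share Itgb7, differed between the genotypes in each subset. The log2 ratio of Itgae to Itga4, by reads per kilobase, was 1.52, 1.39 and 1.53 in naive cKO and 0.73, 0.95 and 0.51 in naive WT libraries. In effector cells it was -6.35, -5.98 and -6.12 in cKO and -7.13, -7.78 and -7.10 in WT libraries. In memory cells it was 0.90, 0.42 and 0.53 in cKO and -0.57, -0.31 and -0.64 in WT libraries, so that Itgae exceeded Itga4 in each cKO library and in no WT library. The mean difference, cKO minus WT, came to 0.75 in naive cells, 1.19 in effector cells and 1.12 in memory cells (exact permutation p = 0.1 each, the smallest possible).

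Each of these differences of the genotype effect was tested in a fit of all 18 libraries. Over the 10 chains, effector minus naive was called for 5, 1 higher and 4 lower, where 18.5% of all genes were called (8.81% higher and 9.69% lower). Memory minus naive was called for 4, 1 higher and 3 lower (16.9% of all genes, 7.89% higher and 9.00% lower), and memory minus effector for 4, all higher (8.71% of all genes, 4.75% higher and 3.96% lower). Itgb2 was the chain higher in both of the contrasts with naive cells, by 0.28 (SE 0.08, adjusted p = 0.0237) and by 0.41 (SE 0.08, adjusted p = 0.00176). The first of these was lost with library totals (0.15, adjusted p = 0.217) and without naive WT replicate 2, naive cKO replicate 1 or 2, effector WT replicate 1 or 3, or effector cKO replicate 1 (0.0567 to 0.0658). Itga1, Itgax and Itgad in the contrasts with naive cells rest on few naive reads, and the WT naive libraries alone would not have passed the filter for any of them. For every chain, sex and genotype cannot be told apart in the contrasts with naive cells.

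Of the 17 other integrin genes listed, 8, 9 and 11 were tested in naive, effector and memory cells, where 24.9%, 20.1% and 19.1% of all genes were called. In naive cells Itgb3, which pairs with Itgav in the vitronectin receptor, rose by 0.74 (SE 0.09) and Itga6, a laminin receptor chain, fell by 0.68 (SE 0.07), with 6 not called. In effector cells 4 were higher and 1 lower: Itga2, a collagen receptor chain, rose by 0.78 (SE 0.07) and Itga5, the fibronectin receptor chain, by 1.26 (SE 0.28), whereas Itgb3 fell by 0.58 (SE 0.09). In memory cells 3 were higher and 2 lower. There, 9 of the 17 had 10 or more normalised reads in all 3 WT libraries, so part of the 11 tested passed through the cKO libraries. Itga2 averaged 475 ± 32.8 in memory cKO and 98.5 ± 5.56 in memory WT libraries, a rise of 2.26 (SE 0.12), and Itga6 fell by 0.89 (SE 0.09). Itga2, like Itga1, belongs to the chains that bind collagen with Itgb1, and it is also carried by NK cells in mice. The medians of this list were 0.26, 0.20 and 0.26 in naive, effector and memory cells.

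Of 28 matched genes that switch integrins on or link them to actin, 25, 25 and 26 were tested, with 1 higher and 6 lower in naive, 6 higher and 2 lower in effector, and 3 higher and 1 lower in memory cells, beside the same shares of all genes. The medians were -0.12, 0.07 and 0.05. In naive cells Skap1, an adaptor that couples the T cell receptor to LFA-1, fell by 0.34 (SE 0.05), Apbb1ip, which brings talin to the membrane, by 0.25 (SE 0.06), and Sharpin, an integrin inhibitor, by 0.36 (SE 0.09), whereas Lims1 rose by 0.47 (SE 0.09). The naive falls are on the deposited scaling, and library totals would add the shift of 0.12 given above. In effector cells the kinase gene Ptk2b rose by 0.28 (SE 0.04) and Rasgrp1 by 0.29 (SE 0.04), and Rasgrp2, an activator of Rap1, fell by 0.23 (SE 0.03). In memory cells Sipa1, an inhibitor of Rap1, rose by 0.39 (SE 0.08), the focal adhesion gene Zyx by 0.40 (SE 0.09), and the adaptor gene Fyb fell by 0.37 (SE 0.09).

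Of 16 matched integrin ligands, 7, 8 and 10 were tested, and 2 were higher and 2 lower in naive, 3 higher and 2 lower in effector, and 5 higher in memory cells. Over all genes, 24.9%, 20.1% and 19.1% were called. Of the 16, 5, 5 and 7 had 10 or more normalised reads in all 3 WT libraries. Part of the ligands tested thus passed the filter with the help of the cKO libraries, which can raise the counts and medians. The medians over the tested ligands were 0.92, 0.15 and 0.61. Icam1, a ligand of LFA-1, averaged 3172 ± 75.8 in effector cKO and 2423 ± 48.9 in effector WT libraries, a rise of 0.39 (SE 0.04), and rose by 0.60 (SE 0.07) in memory cells. Cdh1, the E-cadherin that CD103 binds, averaged 140 ± 24.6 in memory cKO and 36.6 ± 1.64 in memory WT libraries, a rise of 1.89 (SE 0.19), and rose by 1.86 (SE 0.30) in naive cells. Fn1 averaged 231 ± 27.2 in memory cKO and 4.65 ± 3.07 in memory WT libraries, a difference of 5.56 (SE 0.43). With WT libraries under 10 normalised reads on average, it entered the test through the cKO libraries. It was higher beside the macrophage and monocyte markers given above, and what part they have in it was not tested.

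The TGF-beta pathway, which induces Itgae, had calls both ways in each subset. Of 16 genes, 15, 14 and 15 were tested, with 4 higher and 3 lower in naive, 2 higher and 3 lower in effector, and 2 higher and 3 lower in memory cells, and medians of 0.00, -0.02 and 0.00. Of all genes tested, 12.9%, 10.7% and 12.1% were higher and 11.9%, 9.37% and 7.00% lower in naive, effector and memory cells. In naive cells the receptor gene Tgfbr1 rose by 0.59 (SE 0.09) and Smurf2 by 0.50 (SE 0.06). In memory cells Smad3, a transducer of the pathway, rose by 0.62 (SE 0.07) and the ligand gene Tgfb1 by 0.56 (SE 0.08), whereas the receptor gene Tgfbr2 fell by 0.34 (SE 0.07). The coreceptor gene Tgfbr3 was lower in cKO in all 3 subsets, by 0.40 (SE 0.08) in naive, 0.52 (SE 0.13) in effector and 0.90 (SE 0.10) in memory cells. The adjusted p-values of the genes named from the lists ranged from 9.97e-08 to 0.0167.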

How the data were processed

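Messenger RNA of 18 libraries (6 groups of 3) was analysed. Per the submitters' processing notes, the tools named are featureCounts 2.0.6, HISAT2 2.2.1, DESeq2 1.42.0 and fastp, and the build is GRCm39. Roles, annotation and strand setting are not given in the sources used here. The deposited values, a signal per gene, library and table, are whole reads divided by 1 size factor per library, and size factors were set separately for each table. The authors also deposited a log2 fold change and a p-value for each gene, which are not used here. Reads were recovered from the deposited values, and 100% of the values came out whole within a tolerance of 1e-05.

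Genotype was compared within each subset with limma 3.58.1 (R 4.3.3, trend) on log2(normalised reads + 1), for genes with 10 normalised reads in at least 3 libraries, with Benjamini-Hochberg adjustment and a threshold of 0.05. Fold changes on this scale understate changes of low genes. Differences between subsets of the genotype effect came from 1 limma fit of all 18 libraries, across tables normalised separately. Subsets were compared within a genotype with edgeR 4.0.16 (quasi-likelihood, TMM) on recovered reads. Ratios were compared with exact two-sided permutation tests (SciPy 1.17.1). The limma and edgeR steps were tested on simulated data.

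All 10 chains are named, and from each of 4 pathway lists up to 4 called genes with the smallest adjusted p per genotype comparison, of which the text gives most. The sex-linked, overlapping and marker genes were chosen after their values were seen or as marker lists. Members and lists were chosen with earlier results of these data known. Of 194 listed genes, 189 were matched. All 18 pairs of libraries within a group differed beyond counting noise (chi-square per degree of freedom 2.71 to 20.5). Alternatives were another pseudocount (8), no filter, edgeR, DESeq2, library totals (chosen after seeing the data), the replicate block, all 18 libraries, and each library left out.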

Additional observations from a re-analysis of the deposited data

Results flagged for a closer look

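For 13 differences the genotype effect (cKO over WT, log2) was not the same in a pair of subsets, by a test of the difference itself (limma on all 18 libraries, adjusted over all genes). Each is the effect in the first subset minus that in the second. Causes were not tested.

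Effector minus naive was -1.35 for Itgb1 (adjusted p = 1.08e-10), 0.28 for Itgb2 (0.0237), -3.29 for Itga1 (2.36e-07), -1.32 for Itgax (0.00195) and -3.92 for Itgad (5.07e-08). Itga1 had 0 reads in naive WT libraries, so the size of its difference depends on the pseudocount. Memory minus naive was -0.38 for Itgb1 (adjusted p = 0.00451), 0.41 for Itgb2 (0.00176), -0.72 for Itga4 (0.00184) and -2.30 for Itgad (0.000141). Memory minus effector was 0.97 for Itgb1 (adjusted p = 1.7e-07), 2.84 for Itga1 (8.17e-06), 1.41 for Itgam (0.0302) and 1.62 for Itgad (0.00728). In the contrasts with naive cells, sex and genotype cannot be told apart. In naive cells Itgax and Itgad passed the filter only through the cKO libraries. Cox6a2 lies inside the Itgad locus, and whether its reads are part of the Itgad values was not tested.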

How the results depend on the processing

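Of 1847 values of 119 results, 1741 kept their direction and side of the threshold, 53 lost and 34 gained a call, and 19 changed sign. Fitting all 18 libraries called 4 chains and 1519 genes in effector cells, against 8 and 2779. With 1 library left out, 4 to 5 chains and 2127 to 3301 genes were called in naive, 7 to 8 and 2082 to 2525 in effector, and 4 to 8 and 1830 to 3049 in memory cells; the lowest counts for naive and memory cells came without naive cKO replicate 2 and memory WT replicate 3. Sign changes were all of differences not called in the report. In naive cells Itgam was -0.0099 with edgeR, -0.018 with DESeq2 and -0.34 to 0.40 with 1 library left out, Itga4 was 0.042 with library totals and -0.15 to 0.0093 with 1 left out, and Itgal was 0.10 with library totals and -0.082 to 0.033 with 1 left out. For effector minus naive, Itgae was -0.084 with library totals, -0.014 with a pseudocount of 8, -0.013 with edgeR and -0.21 to 0.16 with 1 left out, and Itgal was -0.087 to 0.027. For memory minus naive, a pseudocount of 8 gave 1.60 for Itga1 (adjusted p = 6.82e-05) and 0.085 for Itgax. Same-numbered libraries did not deviate together (correlations of -0.414 to 0.217), and a fit with the replicate number as a block called 5, 8 and 5 chains in naive, effector and memory cells, against 5, 8 and 6; Itgb2 in memory cells was lost (adjusted p = 0.0984) and no other chain's call changed. The causes were not tested. Few reads limit Itga1, Itgam, Itgax and Itgad in naive cells.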

Other observations

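The genes whose levels followed a chain most closely over the 18 libraries were found by the mean absolute difference of log2 CPM, each gene centred on its own mean, among 10068 genes. For Itgb1 they were Cks2 (0.21) and Hmgb2 (0.26), for Itgb2 Map2k3 (0.09) and Rab27a (0.09), and for Itgb7 Crnkl1 (0.08) and Twf2 (0.09). Among the alpha chains, Itgal was nearest to Nptn (0.08) and Golim4 (0.09), Itgam to Ncald (0.39) and Prdm1 (0.41), and Itgax to Ccr2 (0.31) and Ifng (0.37). Itga4 was nearest to Gm39323 (0.18) and Nqo2 (0.22), and Itgae to Abca1 (0.21) and Pmepa1 (0.28). Itga1 and Itgad were below the level required. These are descriptions over libraries that share subsets and depth.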
